A study of Danio rerio with 4 samples.

Results

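Muscle creatine kinase and glycolysis transcripts were followed across the cardiomyocyte (CM) barcodes of the zebrafish ventricle through 8 genes, ckma, ckmb, gamt, ak1, pfkmb, tpi1b, pgam2 and pkmb, of 36351 in the annotation. They were chosen by name, as rows of the gene tables deposited with the count matrices, after earlier results of these data were known, and the choice rested on their level in CM barcodes of different depth and in ambient droplets. Those levels are therefore given as a description. The libraries were droplet single-cell RNA-seq of pooled ventricles from wild-type fish of the AB strain at 4 stages of coronary vessel growth, all in 1 batch by the labels. Initiation held 25 ventricles of fish of 10 mm body length and 1.5 months, and establishment held 18 ventricles at 14 mm and 2 months. Expansion held 12 ventricles at 18 mm and 2.5 months, and maturation held 5 ventricles at 28 mm and 8 months. Each stage was 1 pool and 1 library (n = 1), so stage, age, body size, number of hearts, dissociation and library cannot be told apart, and no p-value is given. Ranges in parentheses are 95% intervals that cover counting error only.

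Creatine kinase moves a phosphate group between ATP and creatine, and the muscle type (ckma and ckmb) sits in the cytosol and at the sarcomere, where it buffers ATP during contraction. Creatine is made by GAMT, which methylates guanidinoacetate, and adenylate kinase (ak1) turns ADP back into ATP and AMP. Glycolysis supplies ATP and pyruvate through, among others, phosphofructokinase (pfkmb, the muscle type), triosephosphate isomerase (tpi1b), phosphoglycerate mutase (pgam2, the muscle type) and pyruvate kinase (pkmb). Most of these genes exist in zebrafish as a pair of paralogs, of which the gene tables give an a and a b copy.

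A CM barcode had at least 5 unique molecular identifiers (UMIs) of ttn.1, ttn.2, myh7l and myh7 together, which encode the giant sarcomere protein titin and cardiac myosin heavy chains. With at least 800 genes it was called deep, and with fewer shallow. There were 1445, 2115, 2841 and 1091 deep CM barcodes from initiation to maturation, holding 17740044, 34565236, 22137929 and 8977120 UMIs, with medians of 10644, 15856, 6531 and 6816 UMIs. The shallow CM barcodes numbered 552, 1687, 3321 and 3145, with medians of 959.5, 1569, 1482 and 2225 UMIs. Ambient droplets were the 45000 barcodes of UMI ranks 45001 to 90000, with medians of 55, 38, 290 and 857 UMIs, so the droplets behind that name were far richer in the later pair of libraries. Of these droplets, 26, 14, 229 and 461 also met the CM rule and were counted in both classes. Mitochondrial transcripts made up 6.75% to 10.2% of UMIs in deep CM barcodes, against 17.8% to 22.2% in shallow ones and 14.4% to 26.6% in ambient droplets. All levels below are in counts per 1000000 UMIs of the class (CPM).

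The label CM was read beside markers that the rule did not use. All 13 genes of a list of other CM markers (myl7, tnnt2a, tnni1b and the like) had UMIs in deep CM barcodes. Together they reached 40879, 71429, 40815 and 53935 CPM there, against 528, 3527, 3499 and 7303 in endothelial barcodes. Endothelial barcodes were chosen to hold few UMIs of the defining CM genes, so this contrast is no independent check of the label. At establishment the list was higher in ambient droplets than in deep CM barcodes (levels below). There it does not set the label apart from ambient transcripts. Deep CM barcodes also held endothelial transcripts, and more of them in the later pair of libraries: a list of 9 endothelial markers, all of them detected, summed to 764, 694, 2119 and 4646 CPM, and 11.2%, 14.3%, 39.4% and 49.3% of deep CM barcodes had at least 3 UMIs of it. The median number of UMIs of the 4 defining CM genes in deep barcodes was 230, 264, 95 and 13. No doublets were removed, and the end-stage comparisons in deep CM barcodes are also given without the barcodes that held at least 3 endothelial UMIs. So are the counts of the glycolysis and other metabolic lists against endothelial barcodes. Between any pair of libraries, 3 to 11 CM barcodes had the same sequence, of which at most 3 were deep in both.

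Skeletal muscle shares most of the 8 genes, so its markers were read beside them. Of a list of 40 skeletal muscle markers, 39 were in the gene tables. The 5 highest were acta1b, acta1a, atp2a1, ryr1b and casq1b, at up to 1728, 299.8, 174, 111 and 40.5 CPM in deep CM barcodes, while the other 34 reached at most 12.4 in deep, 8.69 in shallow and 32.4 in ambient classes. The summed list was 921, 2228, 1888 and 1941 CPM in deep CM barcodes, against 1661, 2107, 3511 and 2168 in shallow ones and 389, 1831, 1535 and 696 in ambient droplets. Its part in the levels of the 8 genes was not tested.

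Deep CM barcodes were set against endothelial barcodes, cells that should lack muscle transcripts, to see how far each gene was specific to muscle cells. Endothelial barcodes played no part in the choice of the genes, but the deep CM level on the other side of the comparison did, so the folds are a description. Endothelial barcodes (1287, 2386, 7592 and 4623 of them) had at least 5 UMIs of the endothelial list, fewer than 5 of the defining CM genes and at least 500 UMIs in all. Of the members tested, 7 of 7 in each library were at least 2-fold higher in deep CM barcodes, beside 18.5%, 20.1%, 14.3% and 11.5% of all tested genes. A gene was tested where the mean of both levels was at least 10 CPM, which pkmb met at none of the first 3 stages in any comparison within a library, and ckmb missed at maturation here. For 4, 2, 2 and 2 of the tested members the endothelial level was so low that passing this filter forced a 2-fold difference (ckma, ckmb, pgam2 and pfkmb at initiation, ckmb and pfkmb at establishment and expansion, pkmb and pfkmb at maturation), and nothing is read from the counts.

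By the size of the fold at initiation, 7 of the genes fell into 2 kinds in this comparison. For ckma, deep CM barcodes were higher by 170-fold (138 to 212) at initiation, 21.3-fold (20.4 to 22.3) at establishment, 13.7-fold (13.2 to 14.3) at expansion and 11.7-fold (11.1 to 12.3) at maturation. The folds of pfkmb were 237 (124 to 518), 66.4 (53.2 to 84.0), 65.4 (54.5 to 79.3) and 19.7 (15.7 to 25.0), and those of pgam2 were 141 (88.9 to 238), 25.2, 13.3 and 8.49. Those of ckmb were 101 (56.0 to 202), 36.1, 7.70 and 6.84, so all 4 were nearly absent from endothelial barcodes at initiation and less so later. Of all ckma UMIs in the library, deep CM barcodes held 76.6% at initiation and 17.0% at maturation. Barcodes with at least 500 UMIs that met no class rule held 53.6% of ckma UMIs at maturation, beside 60.8% of all UMIs. By contrast, ak1, tpi1b and gamt stayed between 2.87-fold (gamt, expansion) and 6.52-fold (ak1, establishment). At maturation the 2 kinds lay close together, with log2 folds of 2.77 for ckmb and 2.48 for gamt. The sparse pkmb had 51 UMIs in deep CM and 0 in endothelial barcodes at initiation, at least 14.0-fold higher against the floor of 3 counts, and its folds were 39.3 (15.2 to 145), 11.8 (8.08 to 17.8) and 8.44 (6.25 to 11.5) at the later stages. All 8 kept their direction under every alternative processing that could change these folds. The ambient droplet settings, the 1.5-fold rule, the level filter and the 500 UMI minimum could not change them.

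**Figure D1:**
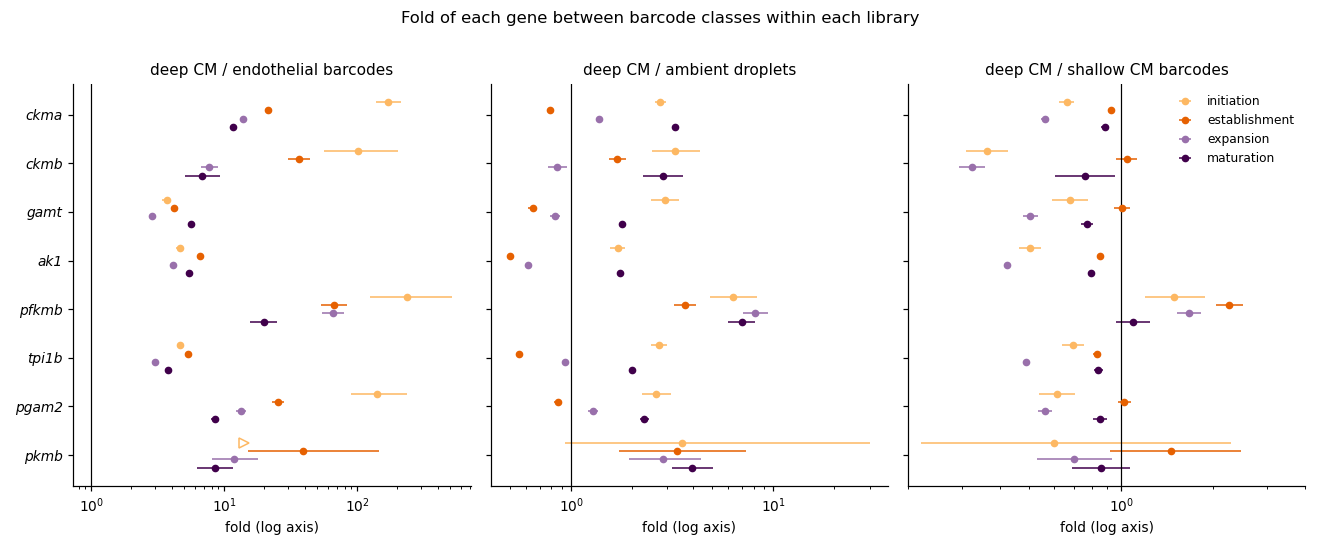
Fold of each of the 8 genes in deep CM barcodes over endothelial barcodes, ambient droplets and shallow CM barcodes (log axis; 1 point per gene and library, bars are 95% counting intervals, and the open triangle marks a lower bound, from the floor of 3 counts). The ckma, ckmb, pgam2 and pfkmb points lie from 6.84 to 237 over endothelial barcodes, above the other genes at initiation, whereas over shallow CM barcodes most points lie below 1 and those of pfkmb above it.

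The endothelial level of ckma was 6.03, 96.0, 54.7 and 77.7 CPM from initiation to maturation, so the drop in its fold after initiation went with a higher endothelial level, while the smaller fold at expansion than at establishment went with a lower deep CM level. In ambient droplets it was 371, 2601, 544 and 277, so the ratio of the endothelial to the ambient level of ckma was 0.281 at maturation, against 0.0162 at initiation. The endothelial level of ak1 was 88.1, 265.6, 283 and 398 CPM, and the ratio of ak1 to ckma UMIs in endothelial barcodes was 14.6, 2.77, 5.18 and 5.12, against 0.641, 1.33, 3.51 and 4.48 in ambient droplets. The endothelial ratio was above the ambient one beyond counting error at every stage, being 5.12 (4.88 to 5.36) against 4.48 (4.37 to 4.59) at maturation and 14.6 (11.8 to 18.3) against 0.641 (0.577 to 0.712) at initiation. The endothelial level of tpi1b was 107, 222, 198 and 213 CPM, and that of gamt 51.7, 76.6, 58.1 and 71.2. Fibroblast and epicardial barcodes held 140.3, 196, 134 and 76.8 CPM of gamt.

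After thinning each barcode to 1000 UMIs, ckma was detected in 53.1%, 75.7%, 44.9% and 43.5% of deep CM barcodes and in 52.0%, 71.3%, 55.0% and 49.6% of shallow ones, against 0.471%, 13.0%, 6.06% and 8.29% of endothelial barcodes. Without thinning the shares in deep CM barcodes were 80.2%, 97.4%, 77.4% and 76.4%. The thinning left out 281, 427, 1002 and 104 shallow and 14, 77, 103 and 39 endothelial barcodes with fewer UMIs. For ak1, the thinned shares were 30.9%, 75.04%, 59.8% and 65.8% in deep CM barcodes, against 8.48%, 27.3%, 26.0% and 33.7% in endothelial ones.

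In deep CM barcodes ckma, a cytosolic muscle creatine kinase, stood at 1027, 2050, 751 and 908 CPM from initiation to maturation. In shallow CM barcodes it was 1552, 2211, 1341 and 1029. Establishment was highest in each class, ambient droplets included, and maturation was lowest of the shallow classes. Its direction between the end stages was not stable: maturation over initiation was 0.884 (0.862 to 0.908) in deep CM barcodes, a log2 fold of -0.18, which turned to 0.40 without barcodes that held at least 3 endothelial UMIs, 0.15 with at least 10 UMIs of the defining CM genes and 0.03 with the split at 500 genes. In shallow CM barcodes it was 0.663 (0.625 to 0.703), log2 -0.59, and 0.04 when scaled by the median ratio of all genes.

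The paralog ckmb stood at 75.8, 190.0, 41.6 and 16.4 CPM in deep CM barcodes, 209.5, 183, 129 and 21.5 in shallow ones and 23.1, 112, 48.6 and 5.77 in ambient droplets. Maturation was the lowest stage in all 3 classes. Maturation over initiation was 0.216 (0.181 to 0.256) in deep and 0.103 (0.0827 to 0.128) in shallow CM barcodes. As UMIs of ckmb for each UMI of ckma, the ratio was 0.0738, 0.0927, 0.0554 and 0.0180 in deep, 0.135, 0.0826, 0.0959 and 0.0209 in shallow and 0.0622, 0.0431, 0.0894 and 0.0208 in ambient classes. The deep ratio at establishment, 0.0927, included a single barcode with more ckmb than ckma UMIs, described below. At maturation all 3 classes had about the same ratio, and it was lower than at any other stage in each of them. How the counting treated reads that match both paralogs was not tested, so a shift between the 2 is uncertain.

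**Figure D2:**
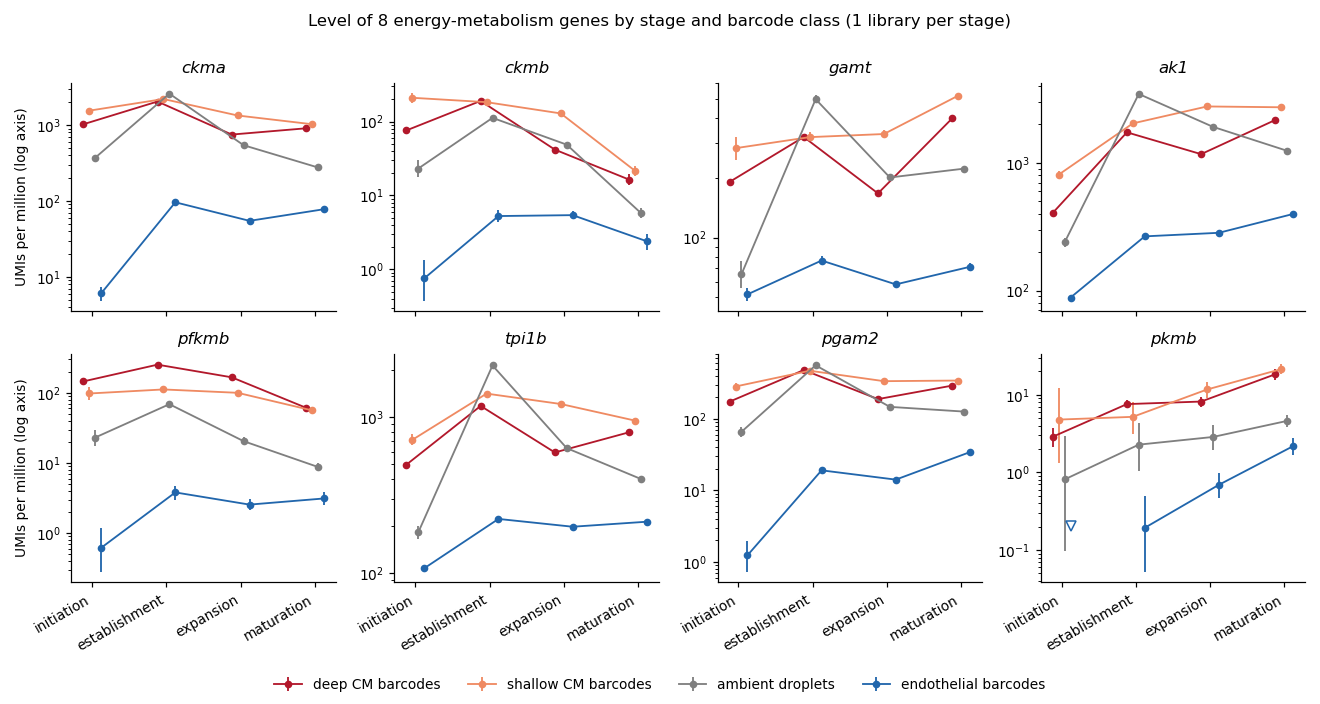
Level of each of the 8 genes (CPM, log axis, 1 panel per gene) by stage in deep CM barcodes, shallow CM barcodes, ambient droplets and endothelial barcodes; bars are 95% counting intervals and the open triangle marks the floor of 3 counts where none was seen. The ckmb points of maturation lie lowest in the CM and ambient classes, at 16.4, 21.5 and 5.77, whereas those of ak1 in deep CM barcodes lie at 2162.5 at maturation, against 405 at initiation.

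The ckmb transcripts lay in fewer of the CM barcodes than those of ckma did. The 10% of deep CM barcodes with most ckmb UMIs held 80.4%, 78.7%, 91.2% and 100% of them from initiation to maturation, whereas the same measure was 31.9%, 27.2%, 38.9% and 40.7% for ckma. It was between 23.8% and 59.6% for ak1, tpi1b, pgam2, pfkmb and gamt, and 100%, 100%, 100% and 94.5% for the sparse pkmb, which had at most 262 UMIs. A gene with few UMIs gives a high value by counting alone. At initiation ckmb had 1345 UMIs, and pfkmb had 2589 with a share of 40.1%. At maturation pfkmb had 552 UMIs and a share of 59.6%, and ckmb had 922 UMIs at expansion and 147 at maturation. The part of counting in the ckmb shares was not tested. UMIs of ckmb were present in 23.5%, 37.6%, 12.9% and 6.42% of deep CM barcodes, so the value of 100% at maturation follows from the last share.

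A single establishment barcode with 100795 UMIs and 4432 genes held 1160 ckmb UMIs, 17.7% of all ckmb UMIs in the deep class, where the next barcode had 71. It also held 610 ckma, 467 tpi1b, 520 myh7l and 6237 myl7 UMIs. Of the skeletal muscle list it held 819 acta1b, 27 acta1a, 9 casq1b and 1 ryr1b UMIs, and no other gene of that list was detected in it. Without it, ckmb at establishment was 157 CPM, against 190.0 with it, and ckma was 2038 CPM. The ckmb ratios and folds given for deep CM barcodes at establishment, drawn ones among them, included it. This barcode was singled out after its values were seen.

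Deep CM barcodes were then split by myh6, the atrial-type myosin heavy chain, at 5 UMIs, a split chosen after seeing the data. Barcodes with at least 5 myh6 UMIs numbered 321, 46, 60 and 19, against 1124, 2069, 2781 and 1072 without. The ckmb level was 10.3, 7.16, 4.15 and 0 CPM with myh6, against 94.3, 193, 42.5 and 16.7 in the rest. That is 0.109 of the rest (0.0774 to 0.149) at initiation, 0.0371 (0.0101 to 0.0951) at establishment and 0.0977 (0.0118 to 0.354) at expansion. The rest at establishment included the barcode with 1160 ckmb UMIs, which had 0 myh6 UMIs and raised the ckmb level there. At maturation none of the 147 ckmb UMIs lay in barcodes with myh6, with an upper limit of 1.43 on the ratio, so nothing was detectable there at this depth.

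The paralog ckma did not share this. Its fold with myh6 over the rest was 1.32 (1.28 to 1.37), 0.943 (0.887 to 1.00), 1.16 (1.05 to 1.28) and 0.828 (0.684 to 0.993). The folds of pfkmb were 0.540 (0.481 to 0.606), 0.775, 0.491 and 0.934 (0.425 to 1.79), and those of gamt 1.36 (1.26 to 1.47), 0.774, 0.907 and 0.334. For ak1 they were 1.07 (1.01 to 1.13), 0.511, 0.551 and 0.292, for tpi1b 0.758, 0.570, 0.701 and 0.308 and for pgam2 0.718, 0.619, 0.756 and 0.413. So tpi1b and pgam2 were lower with myh6 at each stage and ak1 at the last 3. The endothelial list was lower there too, at 208, 26.9, 1402 and 479 CPM with myh6, against 920.5, 705, 2135 and 4720 in the rest, and its part was not tested.

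**Figure D3:**
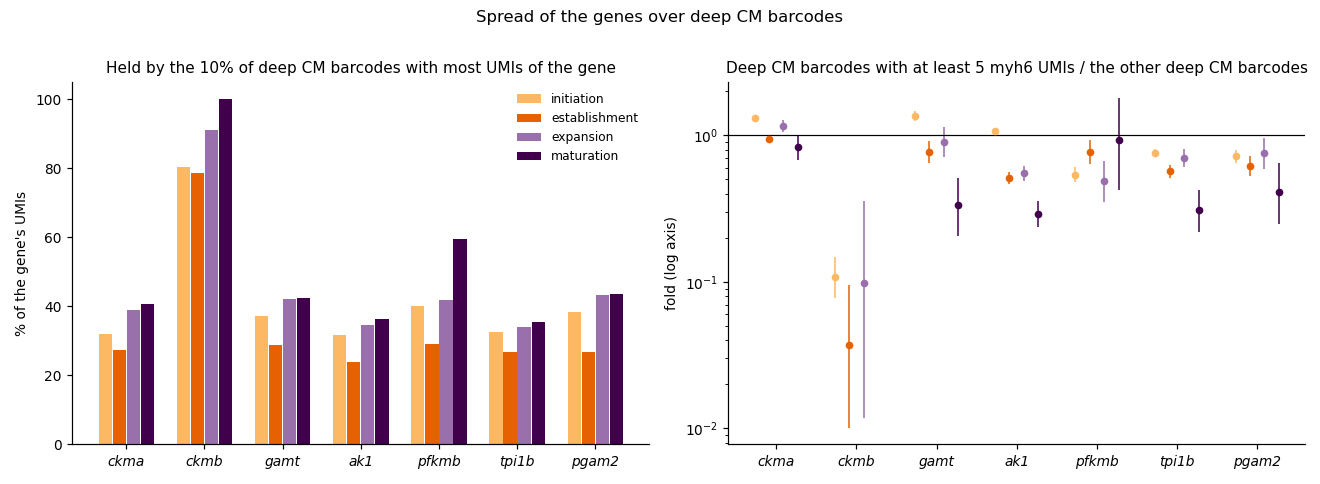
Left, the percent of each gene's UMIs held by the 10% of deep CM barcodes with most of it, by stage; right, the fold in deep CM barcodes with at least 5 myh6 UMIs over the others (log axis, bars are 95% counting intervals; pkmb and ckmb at maturation, which is 0, are not drawn). The ckmb points lie at 78.7% to 100% on the left and at 0.0371 to 0.109 on the right, apart from ckma at 27.2% to 40.7% and 0.828 to 1.32.

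The creatine synthesis gene gamt stood at 190.3, 320.2, 167 and 397 CPM in deep CM barcodes, 281, 319.7, 331 and 517 in shallow ones and 65.3, 496, 200.4 and 222 in ambient droplets. Maturation was highest in both CM classes. Maturation over initiation was 2.09 (1.99 to 2.19) in deep and 1.84 (1.61 to 2.104) in shallow CM barcodes. The first enzyme of the same route, gatm, was at most 2.5 CPM in deep CM barcodes, near the limit of what these counts resolve.

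Levels of ak1, the cytosolic adenylate kinase, were 405, 1731, 1168 and 2162.5 CPM in deep CM barcodes, 807, 2033, 2758 and 2717 in shallow ones and 238, 3454, 1910.4 and 1240.2 in ambient droplets. Initiation was lowest in each class. Maturation over initiation was 5.34 (5.20 to 5.49) in deep and 3.37 (3.12 to 3.64) in shallow CM barcodes. For each ckma UMI there were 0.394, 0.844, 1.55 and 2.38 ak1 UMIs in deep CM barcodes, 0.520, 0.919, 2.06 and 2.64 in shallow ones and 0.641, 1.33, 3.51 and 4.48 in ambient droplets. This ratio went up at each successive stage in all 3 classes, and it was lowest in deep CM barcodes and highest in ambient droplets at every stage. Without barcodes that held at least 3 endothelial UMIs it was 0.382, 0.839, 1.45 and 2.24 in deep CM barcodes. It needs no scaling between libraries, but with 1 pool per stage the order of 4 values has no replicate check.

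**Figure D4:**
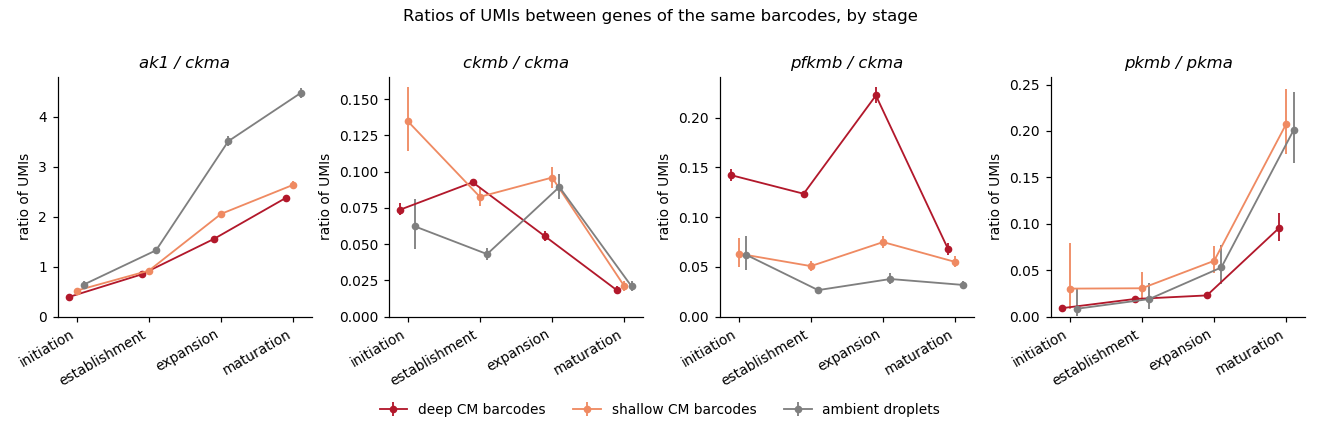
Ratio of UMIs of ak1, ckmb and pfkmb to those of ckma, and of pkmb to its paralog pkma, by stage in deep CM barcodes, shallow CM barcodes and ambient droplets (linear axes, bars are 95% counting intervals). The ak1 ratio lies higher at each successive stage in all 3 classes, at 0.394 to 2.38 in deep CM barcodes, and the ckmb ratio lies lowest at maturation, at 0.0180 to 0.0209.

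Phosphofructokinase pfkmb, which carries the committed step of glycolysis, stood at 146, 253, 167 and 61.5 CPM in deep CM barcodes, 98.1, 112, 100.4 and 56.4 in shallow ones and 23.1, 69.1, 20.5 and 8.81 in ambient droplets. It was the only one of the 8 genes higher in deep than in shallow CM barcodes at the first 3 stages beyond counting error, by 1.49-fold (1.19 to 1.88), 2.26-fold (2.04 to 2.50) and 1.66-fold (1.53 to 1.82). At maturation the fold was 1.09 (0.960 to 1.24). When scaled by the median ratio of all genes, its direction turned in every library, with log2 folds of -1.19, -0.11, -0.91 and -2.57 in place of 0.57, 1.17, 0.73 and 0.12. Against ambient droplets its folds were 6.32, 3.66, 8.14 and 6.98 in deep CM barcodes, the largest of the 8 genes in each library. Maturation over initiation was 0.421 (0.384 to 0.462) in deep and 0.575 (0.454 to 0.737) in shallow CM barcodes. Without barcodes that held at least 3 endothelial UMIs, the deep log2 fold of pfkmb was -0.70, against -1.25 with them, so it then missed a 2-fold change.

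Triosephosphate isomerase tpi1b stood at 496, 1181, 594 and 800.1 CPM in deep CM barcodes, 716, 1417, 1216 and 951 in shallow ones and 182, 2149.6, 633 and 401 in ambient droplets. The muscle phosphoglycerate mutase pgam2 stood at 174, 479.8, 188 and 291 in deep, 282, 469, 335 and 342 in shallow and 65.7, 559, 147 and 126 in ambient classes. Both were highest at establishment in these 3 classes, as ckma was. Maturation over initiation was 1.61 (1.56 to 1.66) for tpi1b and 1.68 (1.59 to 1.77) for pgam2 in deep CM barcodes, and 1.33 (1.22 to 1.45) and 1.21 (1.06 to 1.39) in shallow ones.

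Pyruvate kinase pkmb was the least counted gene, with 51, 262, 181 and 165 UMIs in deep CM barcodes, or 2.87, 7.58, 8.18 and 18.4 CPM (the 95% interval reached up to 28.5% of the level to either side). In shallow CM barcodes it was 4.79, 5.20, 11.7 and 21.4, in ambient droplets 0.811, 2.28, 2.86 and 4.61 and in endothelial barcodes 0, 0.193, 0.692 and 2.18 CPM. Maturation was highest in each class. Neighbouring stages differed by less than counting error for expansion over establishment in deep CM barcodes (fold 1.08, 0.888 to 1.31) and ambient droplets (1.26, 0.579 to 3.02), and for establishment over initiation in shallow CM barcodes (1.09, 0.361 to 4.39) and ambient droplets (2.81, 0.581 to 26.7). Maturation over initiation was 6.39 (4.64 to 8.93) in deep and 4.47 (1.71 to 16.6) in shallow CM barcodes, the second resting on 4 UMIs at initiation. Its paralog pkma stood at 317, 401, 359 and 192 CPM in deep CM barcodes, and there were 0.00908, 0.0189, 0.0228 and 0.0955 pkmb UMIs for each pkma UMI in deep CM barcodes, against 0.0301, 0.0304, 0.06 and 0.208 in shallow ones.

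Along the depth of single barcodes the genes did not follow one curve. In bins of genes per barcode, ckma was highest at 400 to 799 genes in each library, at 2744, 3104, 1833 and 1619 CPM from initiation to maturation, against 739, 1724, 220 and 149 in barcodes with 3200 genes or more and 212, 229, 235 and 241 in those with fewer than 200. The ak1 level was likewise highest at 400 to 799 genes, at 1357, 2773, 3616 and 4177. So was that of ckmb, at 371, 274, 182 and 39.6. For ckmb at establishment the interval there (252 to 297) overlapped that at 800 to 1599 genes (262, 245 to 280). At maturation the same held for ckmb (33.1 to 46.9, against 29.6, 24.4 to 35.6) and ckma (1576 to 1663, against 1565, 1525 to 1605). The highest pfkmb bin was deeper at 3 stages, at 1600 to 3199 genes for initiation (172) and establishment (288) and at 800 to 1599 genes for expansion (229). For initiation its interval (165 to 180) lay within that of pfkmb at 400 to 799 genes (142, 106 to 187). At maturation pfkmb was equal within counting error at 400 to 799 genes (85.8, 76.1 to 96.3) and at 800 to 1599 genes (86.4, 77.3 to 96.2).

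**Figure D5:**
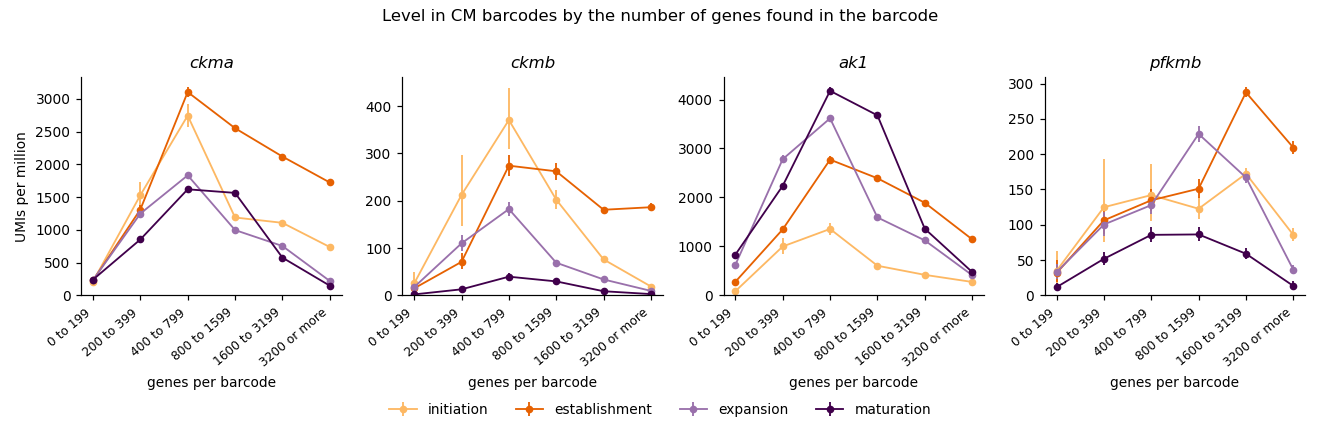
Level of ckma, ckmb, ak1 and pfkmb (CPM, linear axis) in CM barcodes binned by genes per barcode, 1 line per stage, with 95% counting intervals. The ckma, ckmb and ak1 lines are highest at 400 to 799 genes in each library. Intervals at 800 to 1599 genes overlap these for ckmb at establishment and maturation and for ckma at maturation. The pfkmb lines of the first 3 stages are highest at 800 to 1599 or 1600 to 3199 genes. At initiation the pfkmb interval at 400 to 799 genes overlaps the highest, and the maturation line is level from 400 to 1599 genes.

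Deep CM barcodes were compared with ambient droplets library by library, a contrast the choice of genes had used, so nothing is read from the counts. At least 2-fold higher were 6 of 7 tested genes at initiation (all but ak1), where 82.6% of all tested genes were, and 1 of 7 at establishment (pfkmb), where 62.2% were. At expansion it was 1 of 7 (pfkmb), beside 91.9%, and at maturation 5 of 8 (ckma, ckmb, pfkmb, pgam2 and pkmb), beside 98.7%. The folds for ckma were 2.77 (2.59 to 2.96), 0.788 (0.772 to 0.804), 1.38 and 3.28, and those for ak1 were 1.70, 0.501 (0.492 to 0.511), 0.611 and 1.74. At establishment, ckma, ak1, tpi1b, pgam2 and gamt were thus at a lower level in deep CM barcodes than in the ambient droplets. The list of other CM markers ran the same way at that stage, at 71429 CPM in deep CM barcodes and 87930 in ambient droplets.

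Between deep and shallow CM barcodes, 0 of 7, 1 of 7 (pfkmb at establishment), 0 of 7 and 0 of 8 tested genes were at least 2-fold higher in the deep class, beside 70.6%, 63.8%, 69.5% and 74.8% of all tested genes. At least 2-fold lower in the deep class were 1 of 7 at initiation (ckmb), 0 of 7 at establishment, 3 of 7 at expansion (ckmb, ak1 and tpi1b) and 0 of 8 at maturation, beside 0.649%, 0.659%, 0.559% and 0.392%. The ckmb folds were 0.362 (0.309 to 0.426), 1.04 (0.960 to 1.13), 0.324 (0.294 to 0.357) and 0.760 (0.605 to 0.954). The establishment fold included the single barcode with 1160 ckmb UMIs, which the counting interval does not allow for. Without that barcode the deep level of ckmb was 157 CPM, below the shallow level. Between shallow CM barcodes and ambient droplets, 7 of 7, 0 of 7, 4 of 7 (ckma, ckmb, pgam2 and pfkmb) and 8 of 8 were at least 2-fold higher in the shallow class, beside 32.1%, 16.2%, 65.8% and 88.7%. These counts turn on the scaling: the median log2 fold of all genes was 1.86, 1.48, 3.03 and 4.19 for deep over ambient, 1.76, 1.28, 1.64 and 2.69 for deep over shallow, and 0.37, 0.02, 1.28 and 1.56 for shallow over ambient. Relative to that shift, no gene of the 8 was 2-fold higher in deep CM barcodes than in ambient droplets in any library.

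Across the end stages in deep CM barcodes, 3 of 8 genes (ak1, pkmb and gamt) were at least 2-fold higher at maturation than at initiation, where 13.6% of all tested genes were, and 2 of 8 (ckmb and pfkmb) were at least 2-fold lower, where 14.7% were. In shallow CM barcodes 2 of 8 (ak1 and pkmb) were higher, beside 3.44%, and 1 of 8 (ckmb) was lower, beside 36.1%. The median log2 fold of the 8 genes was 0.72 in deep and 0.34 in shallow CM barcodes, against -0.09 and -0.63 for all tested genes. These stage levels were known when the genes were chosen. Without barcodes that held at least 3 endothelial UMIs, the deep log2 folds were -1.64 for ckmb, 2.95 for ak1, 1.16 for tpi1b, 3.25 for pkmb, 1.32 for pgam2 and 1.62 for gamt. In that subset of 1283, 1813, 1721 and 553 barcodes, the endothelial list stood at 21.4, 22.3, 47.3 and 33.4 CPM.

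Other phosphagen genes were measured from a list that left the 8 members out. Among all tested genes, 18.5%, 20.1%, 14.3% and 11.5% were at least 2-fold higher in deep CM than in endothelial barcodes from initiation to maturation. As with the 8 members, a very low endothelial level can force such a call through the level filter. How many genes of this and the following lists were forced was not counted, so nothing is read from those counts. Of 5 tested genes of the phosphagen list, 4 were so in each library, the brain-type creatine kinase ckbb, the mitochondrial creatine kinases ckmt2a and ckmt2b and the creatine transporter slc6a8. Their deep CM levels from initiation to maturation were 246, 239.6, 87.7 and 179 CPM for ckbb, 74.2, 292, 75.8 and 58.9 for ckmt2a and 294, 495, 203 and 271 for ckmt2b. For slc6a8 they were 201, 91.5, 128 and 56.1 CPM. It was the 1 gene of this list at least 2-fold lower at maturation than at initiation, beside 14.7% of all tested genes. None was higher, beside 13.6%. The same held without barcodes that held at least 3 endothelial UMIs, where 20.5% of all tested genes were lower and 9.43% higher. The brain-type paralog ckba stood at 35.7, 13.2, 33.2 and 24.7 CPM. None of 3 tested adenylate kinases other than ak1 was 2-fold higher in deep CM than in endothelial barcodes in any library.

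Of the other glycolysis genes tested, 11 of 18, 13 of 19, 9 of 17 and 7 of 18 were at least 2-fold higher in deep CM than in endothelial barcodes from initiation to maturation, beside 18.5%, 20.1%, 14.3% and 11.5% of all tested genes. Leaving out CM barcodes that held at least 3 endothelial UMIs gave 12 of 18, 13 of 19, 11 of 17 and 10 of 18. The shares of all tested genes were then 19.6%, 21.1%, 17.4% and 18%. Among the glycolysis genes gapdh stood at 3272, 7163, 3980 and 5317 CPM in all deep CM barcodes, the muscle enolase eno3 at 1372, 2837, 1190 and 1263 and the aldolase aldoaa at 697, 2007, 1036 and 1452.5. Between the end stages, aldoaa was at least 2-fold higher at maturation, beside 13.6% of all tested genes. At least 2-fold lower were hk1, gpib and pfkpb, beside 14.7%. The last 3 encode hexokinase, which starts glycolysis, glucose phosphate isomerase and a platelet-type phosphofructokinase. Hexokinase hk1 stood at 134, 174, 159 and 49.9 CPM and pfkpb at 106, 117, 121 and 36.9. Without barcodes that held at least 3 endothelial UMIs, hk1, gpib and pfkpb stayed lower (3 of 18 tested, beside 20.5% of all genes). Then hk2, aldoaa, gapdh and pgam1b were higher (4 of 18, beside 9.43%). The list is not set apart here by any test, and calls over endothelial barcodes that the level filter forced were not counted.

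The other metabolic lists are set beside the same share of all genes called in each library, 18.5%, 20.1%, 14.3% and 11.5%. Here too the level filter can force calls over endothelial barcodes, and the forced ones were not counted. For lactate and pyruvate handling, 12 of 13, 13 of 13, 13 of 14 and 10 of 14 tested genes were at least 2-fold higher in deep CM than in endothelial barcodes, for glycogen 8 of 9, 8 of 9, 5 of 9 and 3 of 8, and for fatty acid oxidation 16 of 17, 18 of 18, 17 of 17 and 14 of 15. Without CM barcodes that held at least 3 endothelial UMIs, 19.6%, 21.1%, 17.4% and 18% of all genes were called. The lactate and pyruvate counts were then 12 of 13, 13 of 13, 13 of 14 and 13 of 14. Those for glycogen were 8 of 9, 8 of 9, 7 of 9 and 6 of 9. Those for fatty acid oxidation were 16 of 17, 18 of 18, 18 of 18 and 17 of 17. At maturation against initiation in all deep CM barcodes, none of these genes was at least 2-fold higher, in a comparison where 13.6% of all genes were. At least 2-fold lower were 5 of 14 of the lactate and pyruvate list (ldha, slc16a1b, slc16a3, pdk2a and pdk2b), 3 of 9 glycogen genes (pygmb, pygb and agla) and 3 of 18 fatty acid oxidation genes (cpt1ab, cpt1b and acsl1a). Among all genes 14.7% were lower, and the lists are not set apart here by any test. Without barcodes that held at least 3 endothelial UMIs, where 9.43% of all genes were higher and 20.5% lower, fabp3 and slc25a20 were higher (2 of 19 fatty acid oxidation genes), and lower were 3 of 13 of the lactate and pyruvate list (slc16a1b, pdk2a and pdk2b), 4 of 9 glycogen genes (pygmb, pygb, gbe1b and agla) and 2 of 19 fatty acid oxidation genes (cpt1ab and cpt1b).

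Over 12 points, the 4 libraries in their deep, shallow and ambient classes, the 8 genes did not move as 1 group. Pearson's r of the log2 level with the mean of the 8 was 0.98 for pgam2, 0.95 for tpi1b, 0.94 for ckma, 0.82 for gamt, 0.72 for ak1, 0.71 for ckmb, 0.70 for pfkmb and 0.39 for pkmb. That mean includes the gene itself, which raises these values, so they are not comparable with r for genes outside the 8. Pairs ran from -0.21 (pkmb and ckmb) to 0.96 (pgam2 and tpi1b). A mean of at least 50 CPM was reached by 1055 genes, members included. Among these, the 10 other genes most like the mean of the 8 were ndufs8a and idh2 (both r = 0.98), then tnnc1a, slc25a5, actc1a, tomm5, atp5mc3a, cycsb, atp5mc3b and pdha1a (each 0.97). Most of these encode proteins of the mitochondria, and tnnc1a and actc1a encode cardiac troponin C and cardiac actin. The points share libraries and depth, so r is a description and has no p.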

How the data were processed

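Ventricles were profiled with a droplet 3′ kit (version 3.1), 1 pooled library per stage. The deposited values are raw UMI counts of all barcodes, made by the authors with Cell Ranger on GRCz11 with the Lawson annotation; the submitters' notes and the methods give version 6.1.2, whereas the file header gives 7.1.0, which by default also counts intronic reads, so it is not known here whether introns were counted. UMIs were summed per class and divided by the class total, as counts per 1000000 (CPM). Levels carry exact Poisson intervals and folds exact conditional binomial intervals. A call was at least 2-fold with a mean of both levels of at least 10 CPM. Counts carry no length correction, so a ratio of 2 genes is read only for how it varied over stages and classes.

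The 8 genes and all lists were chosen with earlier results of these data known. All 8 are named, then list genes with at least 50 CPM in deep CM barcodes and paralogs, called genes of small counts, and the 10 genes most like their mean on log2(level + 10). The myh6 split and the share held by the top 10% of barcodes were added after seeing the data. Alternatives were another CM minimum, splits at 500 and 1200 genes, deeper ambient ranks, no mitochondrial genes, median-ratio scaling, a 1.5-fold rule, no filter on low values, and barcodes with endothelial or mitochondrial transcripts left out; ambient droplets without CM barcodes and CM barcodes under 500 UMIs left out were added after seeing the data, as were the list calls without barcodes that held endothelial UMIs. The computation was tested on simulated data, with python 3.11.15, numpy 2.4.6, scipy 1.17.1, pandas 2.3.3 and matplotlib 3.10.9. No doublet caller was run. Some list genes are not reported here.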

Additional observations from a re-analysis of the deposited data

Results flagged for a closer look

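For 6 of the genes the fold of deep CM barcodes over ambient droplets lay on opposite sides of 1 in different libraries. The lowest and the highest fold over the 4 libraries were 0.788 and 3.28 for ckma, 0.857 and 3.28 for ckmb, 0.501 and 1.74 for ak1, 0.550 and 2.72 for tpi1b, 0.859 and 2.64 for pgam2, and 0.646 and 2.92 for gamt (0.6455 before rounding). The lowest was at establishment for each but ckmb, for which it was at expansion. For shallow CM barcodes over ambient droplets the same held for 5 genes, at 0.850 and 4.18 for ckma, 0.589 and 3.39 for ak1, 0.659 and 3.92 for tpi1b, 0.840 and 4.301 for pgam2, and 0.644 and 4.31 for gamt, each lowest at establishment and highest at initiation. With 1 library per stage, the difference between libraries was not tested.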

How the results depend on the processing

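Of the recomputed counts of members called, 205 stayed within 1.5 times the reported count and 51 did not. The direction of deep CM over endothelial barcodes held for every member under every alternative that could change it, with log2 folds of at least 1.39. Median-ratio scaling moved most: no member was then higher in deep CM barcodes than in ambient droplets (0 in each library), and 7, 6, 6 and 8 members were lower in deep than in shallow CM barcodes from initiation to maturation. Under it, 0 were higher in deep than in shallow CM barcodes at establishment, 1 was higher in shallow CM barcodes than in ambient droplets at expansion and 1 at maturation, and 4 were higher at maturation than at initiation in shallow CM barcodes. Of genes past 2-fold before, it also turned round the log2 fold of deep CM barcodes over ambient droplets at initiation for ckma (-0.39), ckmb (-0.14), tpi1b (-0.42), pgam2 (-0.46) and gamt (-0.32), at expansion for pfkmb (-0.00056) and at maturation for ckma (-2.48), ckmb (-2.69), pkmb (-2.20), pgam2 (-2.99) and pfkmb (-1.39). The same scaling turned round deep over shallow for pfkmb at establishment (-0.11), and shallow over ambient for pgam2 at expansion (-0.088) and for ak1 (-0.42), tpi1b (-0.31), pgam2 (-0.11) and gamt (-0.34) at maturation. Counting all 8 members whether called or not, deep over ambient was above 0 for 1, 2, 0 and 0 of them under this scaling, in place of 8, 3, 4 and 8, and shallow over ambient for 8, 3, 4 and 4, in place of 8, 3, 8 and 8. By construction it sets the median fold of all genes to 0.

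With at least 10 UMIs of the defining genes, 1 member was lower in deep than in shallow CM barcodes at expansion, 2 were higher in shallow CM barcodes than ambient droplets at expansion, 8 were higher in deep CM barcodes than ambient droplets at maturation and 1 was lower at maturation than at initiation in deep CM barcodes. With the split at 500 genes, the counts for deep below shallow were 0 at initiation and 1 at expansion, deep above shallow 1 at expansion, shallow above ambient 2 at expansion and 3 at maturation, and deep above ambient 8 at maturation. With the split at 1200 genes they were 2 at initiation and 3 at maturation for deep below shallow, 2 at maturation for deep above ambient and 1 for higher at maturation than at initiation in deep CM barcodes. Without mitochondrial genes in the total, and also without barcodes over 40% mitochondrial UMIs, 2 were lower in deep than in shallow CM barcodes at initiation and 0 higher at establishment, and the second setting gave 2 for shallow above ambient at establishment. With ambient ranks over 90000 to 180000, deep above ambient was 2 at establishment and 3 at maturation, shallow above ambient was 2 and 3, and ak1 turned round at maturation (shallow over ambient, log2 -0.45). At 1.5-fold, deep below shallow was 4 at initiation and 6 at expansion, deep above shallow 1 at expansion, deep above ambient 2 at establishment and 8 at maturation, shallow above ambient 2 at establishment, higher at maturation in deep CM barcodes 5 and lower at maturation in shallow ones 3. Without the filter on low levels, deep above ambient was 2 at establishment and 2 at expansion, and shallow above ambient 1 at establishment. Without CM barcodes that held at least 3 endothelial UMIs, deep above shallow was 1 at expansion, deep above ambient 8 at maturation, and 5 members were higher and 1 lower at maturation than at initiation in deep CM barcodes. Without CM barcodes under 500 UMIs, an alternative added after seeing the data, 2 were lower in deep than in shallow CM barcodes at initiation. Apart from the scaling, the cause was not tested.

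Depth limits pkmb most, whose deep CM level had a 95% interval that reached 12.3% to 28.5% of its value to either side, against 0.737% to 2.18% for ckma. No paired analysis was possible because each stage was 1 library and the labels give the stages no shared replicate numbers, and leaving out a replicate was not possible for the same reason.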
